A study of Mus musculus with 25 samples.

Results

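The major urinary protein (Mup) genes are a family of close paralogs on mouse chromosome 4, described here through 10 of the 24358 genes in the deposited table, namely Mup1, Mup2, Mup3, Mup4, Mup5, Mup6, Mup7, Mup20, Mup21 and Gm2083. They were chosen by their symbols after their measured counts in these libraries were known, and each is described in the conditions in which its estimate did not fail. The choice therefore supports no statement about how much these genes differ between conditions, and all values are a description without a test.

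RNA of sperm from the cauda epididymis of 14-week-old mice was sequenced in 25 libraries, with 5 libraries in each of 5 conditions. Vehicle C57BL/6J (labelled C57.CTL.F1) and vehicle FVB/N (labelled FVB.CTL.F1) are males whose mothers received corn oil in pregnancy, from embryonic day 9 to 19. Exposed C57BL/6J (labelled C57.D300.F1) and exposed FVB/N (labelled FVB.D300.F1) are males whose mothers received 300 mg/kg/day of the plasticizer bis(2-ethylhexyl) phthalate (DEHP) by mouth over the same days, and F2 C57BL/6J (labelled C57.D300.F2) is the generation after exposed C57BL/6J. The series holds no F2 condition from vehicle mothers and none from FVB/N. The labels mark the 10 libraries of vehicle and exposed C57BL/6J as a re-analysis and leave the other 15 unmarked, so a difference between a marked and an unmarked condition cannot be told apart from a difference between these sets of libraries.

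The authors deposited 1 estimated fragment count per gene and condition, which combines the 5 libraries. No value has a replicate check, no p-value is given, and the error of a count is the SD under the authors' quantification model, called the model's SD. The counts summed to 8602900 in vehicle C57BL/6J, 7748902 in exposed C57BL/6J, 6921688 in F2 C57BL/6J, 7568129 in vehicle FVB/N and 8278486 in exposed FVB/N. The limit of detection was set at 3 counts per condition, which covers counting error only.

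Mup genes encode small secreted lipocalins, proteins whose barrel-shaped pocket binds volatile pheromones. Adult male mice make them mainly in the liver, under growth hormone, androgens, thyroid hormone and glucocorticoids, and pass them into urine as scent signals. Some members are also made in salivary, lacrimal and nasal glands, and Mup20 encodes darcin, a male pheromone that attracts females.

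On GRCm38, 9 of the 10 genes have coordinates in GENCODE M21, all on chromosome 4 within a cluster of 2194 kb that holds 22 protein-coding Mup genes and 26 Mup pseudogenes. At one end lie Mup4 (chr4:59956804-59960710, minus strand) and Mup6 (chr4:59964294-60007274, plus strand). The near-identical central genes include Mup7 (chr4:60066469-60070475), Mup2 (chr4:60135932-60154289) and Mup1 (chr4:60498012-60501960), all on the minus strand. Mup5 (chr4:61831319-61835233), Mup20 (chr4:62050234-62054158), Mup3 (chr4:62083476-62087342) and Mup21 (chr4:62147932-62150863) follow at the other end, also on the minus strand. Gm2083 has no entry of its own there. RefSeq gives Gm2083 as an older symbol of Mup13, whereas the deposited table lists Gm2083 and Mup13 apart, so the position of Gm2083 and the transcript counted under that name are not settled.

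Promoters of 6 of the 10 genes were found in RefSeq (GRCm38.p6), those of Mup2, Mup3, Mup4, Mup6, Mup7 and Mup21. The 150 bases before the RefSeq start are shown for the 5 of them that hold the motif TATATAA. Of these genes Mup3, Mup4, Mup6 and Mup21 were all lower outside the C57BL/6J F1 conditions. Mup2 was listed at 0 throughout and holds the motif too, so the motif says nothing of these levels. Each runs 5′ to 3′ on the strand of the gene, and the capitals mark the motif.
Mup3 (chr4:62087318-62087467, - strand): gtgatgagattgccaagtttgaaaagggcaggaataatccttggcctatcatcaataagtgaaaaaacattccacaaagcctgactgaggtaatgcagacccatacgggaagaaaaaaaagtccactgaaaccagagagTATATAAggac
Mup21 (chr4:62150842-62150991, - strand): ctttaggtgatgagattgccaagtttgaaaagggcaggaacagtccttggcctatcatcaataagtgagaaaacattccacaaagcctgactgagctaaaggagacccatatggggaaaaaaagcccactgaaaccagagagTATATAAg
Mup4 (chr4:59960668-59960817, - strand): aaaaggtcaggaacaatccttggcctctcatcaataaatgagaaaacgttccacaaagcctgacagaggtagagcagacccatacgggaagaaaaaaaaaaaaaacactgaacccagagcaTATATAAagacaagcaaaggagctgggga
Mup6 (chr4:60003331-60003480, + strand): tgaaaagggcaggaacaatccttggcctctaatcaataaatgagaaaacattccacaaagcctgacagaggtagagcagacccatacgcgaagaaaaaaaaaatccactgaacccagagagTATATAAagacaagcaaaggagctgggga
Mup2 (chr4:60139857-60140006, - strand): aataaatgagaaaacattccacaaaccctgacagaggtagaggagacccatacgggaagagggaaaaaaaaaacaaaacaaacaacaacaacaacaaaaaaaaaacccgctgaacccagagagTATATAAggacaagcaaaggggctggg

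The motif TATATAA, which was chosen after these sequences were seen, began 29 bases before the RefSeq start in Mup4 and Mup6, 27 in Mup2, 11 in Mup3 and 8 in Mup21. Searched on both strands in the 250 bases before a start, it was found in 3.04% of all 32851 promoters and in 5 of the 6 Mup promoters, all but that of Mup7. The Mup7 window ends in letters that lie farther from the start in Mup6, so the lack of a match there comes with the window and says nothing of the gene. TTCNNNGAA, the palindrome bound by Stat5, was found in 7.02% of all promoters and in 0 of the 6 Mup promoters. TGTTCT, a core motif of steroid receptors, was found in 16.1% of all promoters and in the Mup3 and Mup21 promoters. These matches describe the letters in the windows and are not binding sites. The aligned bases of the 250-base promoters were 93.4% identical between Mup3 and Mup21, 93.4% between Mup2 and Mup6 and 92.3% between Mup4 and Mup6.

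The coding sequences show how far reads could be assigned to 1 gene. Below are 48 bases of each from GENCODE M21 transcripts on GRCm38, taken where the other genes differ most in all from Mup1 without gaps, with capitals at bases that differ from Mup1. The stretch covers coding bases 212 to 259 of Mup1.
Mup1: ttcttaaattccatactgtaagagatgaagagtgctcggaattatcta
Mup2: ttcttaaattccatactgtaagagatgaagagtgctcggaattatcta
Mup7: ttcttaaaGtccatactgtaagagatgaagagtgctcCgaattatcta
Mup20: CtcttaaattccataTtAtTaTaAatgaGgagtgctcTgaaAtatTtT
Mup3: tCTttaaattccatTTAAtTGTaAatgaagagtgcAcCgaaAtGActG
Mup21: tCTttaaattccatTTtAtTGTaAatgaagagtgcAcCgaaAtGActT
Mup4: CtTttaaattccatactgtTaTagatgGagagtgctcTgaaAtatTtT
Mup5: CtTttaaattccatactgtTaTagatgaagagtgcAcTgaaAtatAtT
Mup6: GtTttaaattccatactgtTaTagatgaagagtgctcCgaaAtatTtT

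In this stretch Mup2 had 0 and Mup7 2 differences from Mup1, whereas Mup20 had 11 and Mup3 16. Over the aligned bases of the longest coding sequences, Mup1 was 99.4% identical to Mup2 and 99.1% to Mup7. Mup3 and Mup21 were 96.3% identical, with 20 differing bases. Mup20 was 91.1% identical to Mup1 and 88.0% to Mup3.

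Read sharing was measured as the percentage of the distinct 32-base words in the transcripts of a gene that occur in transcripts of another GENCODE gene. It was 89.8% for Mup7, 78.6% for Mup2 and 69.7% for Mup1, and 94.9% for Mup13. Mup20 shared 63.7% of its words, and 51.1% of them were found in the pseudogene Mup-ps19. The other members shared less, with 36.5% for Mup4, 35.3% for Mup5, 32.5% for Mup21, 28.9% for Mup3 and 22.7% for Mup6. Counts of Mup1, Mup2, Mup7, Mup20 and Gm2083 are therefore uncertain as counts of 1 gene, and the variance that the authors' quantification assigned to uncertain read assignment was 0 for each gene of the table.

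**Figure D1:**
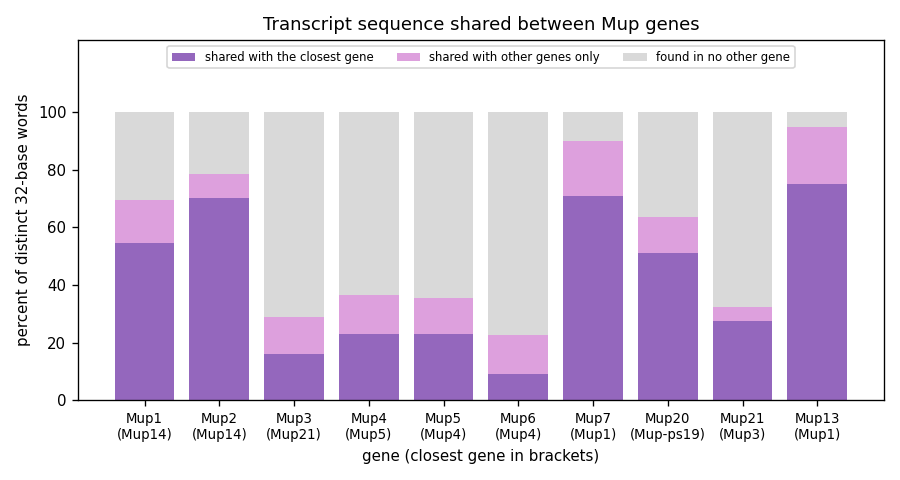
Percentage of the distinct 32-base transcript words of each gene that are shared with its closest gene (named in brackets), shared with other genes only, or found in no other gene. Mup7 and Mup13 shared 89.8% and 94.9% of their words, and Mup6 shared 22.7%.

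The quantification failed where too many fragments fell on a locus, and such estimates, which the table lists at 0, were treated as missing. Among the 22 family genes of the table, 13 failed in vehicle C57BL/6J and 4 in exposed C57BL/6J, and 0 failed in F2 C57BL/6J, vehicle FVB/N and exposed FVB/N. The failures lay in the central genes, from Mup7 to Mup19. Of the 10 members, Mup1 and Mup7 failed in vehicle C57BL/6J and Mup7 in exposed C57BL/6J, which left 8 members estimated in all 5 conditions. In the table as a whole, 10 genes failed in vehicle C57BL/6J and in no other condition, and 9 of these were of the Mup family. The true level of the central genes in vehicle C57BL/6J is thus unknown, and the member sums below leave it out.

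The 12 family genes outside the 10 members were near 0 where all of them were estimated, with sums of 4.13 counts in F2 C57BL/6J, 2.54 in vehicle FVB/N and 2.31 in exposed FVB/N. Mup14 was the highest of them in these conditions, at 1.57, 1.42 and 1.69 counts. In exposed C57BL/6J, the 9 that were estimated summed to 52.6 counts, led by Mup8 at 18.9. In vehicle C57BL/6J only Mup15 was estimated among them, at 0 counts.

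**Figure D2:**
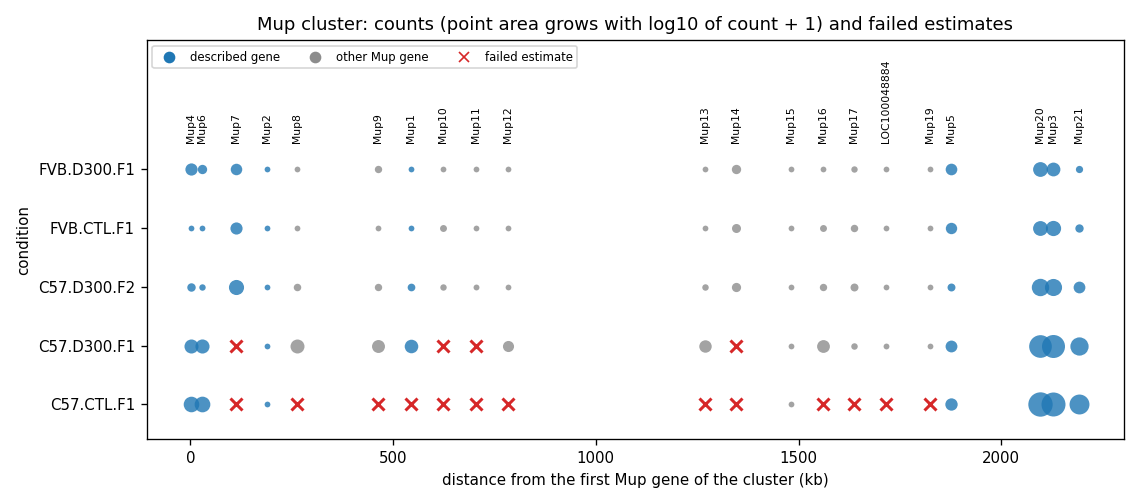
Mup genes along the cluster (distance in kb from its first gene) in each condition, with points whose area grows with log10 of the estimated count plus 1 and crosses for failed estimates. Crosses are confined to the central genes in vehicle C57BL/6J (13 genes) and exposed C57BL/6J (4 genes), and Mup20 and Mup3, near the right end, have the highest estimated counts in each condition.

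Mup20, the gene of the pheromone darcin, had 30005 counts in vehicle C57BL/6J, 6973 in exposed C57BL/6J, 142 in F2 C57BL/6J, 30.3 in vehicle FVB/N and 29.6 in exposed FVB/N. The model's SD of these counts was 30997, 4828, 49.8, 10.6 and 10.8 in the same order. Mup20 was thus high in both F1 conditions of C57BL/6J, lower in the F2 condition and lowest in FVB/N. In vehicle C57BL/6J the model's SD exceeded the count itself, so the difference of 23032.5 counts from exposed C57BL/6J lay within the model's SD of that difference, 31371. Both FVB/N conditions also differed by less than the model's SD of the difference, whereas exposed C57BL/6J and F2 C57BL/6J, and F2 C57BL/6J and vehicle FVB/N, differed by more.

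Mup3, which lies 29317 bases from Mup20, had 21889 counts in vehicle C57BL/6J, 9264 in exposed C57BL/6J, 119 in F2 C57BL/6J, 37.9 in vehicle FVB/N and 17.1 in exposed FVB/N. The model's SD was 18683, 6497, 37.2, 13.2 and 7.51 in the same order. The order of conditions was that of Mup20. The conditions next to each other in it differed by more than the model's SD of the difference apart from vehicle C57BL/6J and exposed C57BL/6J, which differed by 12625 counts with a model's SD of 19780.

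Mup21, the next gene after Mup3 and its closest paralog, had 812 counts in vehicle C57BL/6J, 250.4 in exposed C57BL/6J, 5.94 in F2 C57BL/6J, 0.952 in vehicle FVB/N and 0.416 in exposed FVB/N. Its model's SD was 281, 75.3, 3.74, 1.41 and 1.00 in the same order. Both FVB/N values lay under the limit of detection and did not differ beyond the model's SD of the difference. Unlike in Mup20 and Mup3, the difference between the F1 conditions of C57BL/6J, 562 counts, exceeded the model's SD of the difference, 291.

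Mup4 and Mup6, neighbours at the other end of the cluster, had low counts. Mup4, known from nasal and lacrimal glands, had 46.6 counts in vehicle C57BL/6J, 19.4 in exposed C57BL/6J, 1.02 in F2 C57BL/6J, 0 in vehicle FVB/N and 7.48 in exposed FVB/N. Mup6 had 49.6, 19.9, 0.153, 0 and 1.69 counts in the same order. In C57BL/6J both followed the order of Mup20 and Mup3, at a far lower level. In FVB/N the 7.48 counts of Mup4 had a model's SD of 5.81, and the other values of both genes were at or under the limit of detection.

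Mup5, known from salivary glands, did not follow that order. It had 7.96 counts in vehicle C57BL/6J, 6.12 in exposed C57BL/6J, 0.727 in F2 C57BL/6J, 4.88 in vehicle FVB/N and 5.59 in exposed FVB/N. It did not reach 10 counts in any condition, and neither the vehicle conditions nor the exposed F1 conditions of the strains differed in it by more than the model's SD of the difference.

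The central genes had few counts where they were estimated. Mup7 had 35.3 counts in F2 C57BL/6J, 7.23 in vehicle FVB/N and 5.21 in exposed FVB/N, and failed in both F1 conditions of C57BL/6J. Mup1 had 14.98 counts in exposed C57BL/6J, 0.611 in F2 C57BL/6J and 0 in both FVB/N conditions, and failed in vehicle C57BL/6J. Mup2 was listed at 0 in all 5 conditions with estimates that did not fail, while 78.6% of its words are shared.

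Gm2083 was listed at 0 counts in vehicle C57BL/6J, 159 in exposed C57BL/6J, 3.99 in F2 C57BL/6J, 3.95 in vehicle FVB/N and 0.888 in exposed FVB/N. Its highest listed count was that in exposed C57BL/6J. Its own estimate in vehicle C57BL/6J did not fail, whereas those of 13 other family genes did. The model gave its 159 counts a variance of 0, and Gm2083 is 1 of 2 genes with at least 10 counts for which it did so in that condition. Mup13, whose older symbol RefSeq gives as Gm2083, failed in vehicle C57BL/6J and had 8.38 counts in exposed C57BL/6J.

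**Figure D3:**
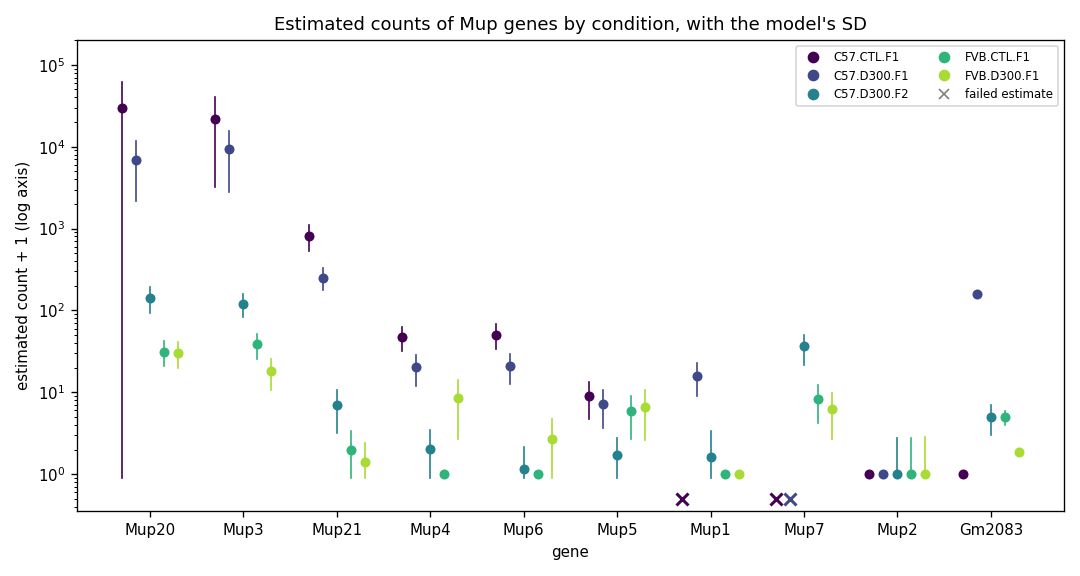
Estimated count plus 1 (log axis) of the 10 genes in the 5 conditions, as points with lines of 1 model's SD on each side, which end at 0.9 where they would reach below it; crosses mark failed estimates. Mup20, Mup3 and Mup21 have their highest counts in vehicle C57BL/6J and exposed C57BL/6J.

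Per 1000 bases of transcript, the level in vehicle C57BL/6J was 32333 counts for Mup20, 22245 for Mup3 and 1200.0 for Mup21. On the same scale it was 53.6 for Mup6, 50.5 for Mup4 and 8.60 for Mup5. In exposed C57BL/6J the order of the leading genes was the reverse, with 9415 counts per 1000 bases for Mup3 and 7514 for Mup20. The ratio of Mup20 to Mup3 counts was 1.37 in vehicle C57BL/6J, 0.753 in exposed C57BL/6J, 1.19 in F2 C57BL/6J, 0.800 in vehicle FVB/N and 1.73 in exposed FVB/N. The ratio was lower with DEHP in C57BL/6J, where the differences of both genes lay within the model's SD, and higher in FVB/N, where both had few counts.

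The 8 members estimated in all conditions summed to 52810 counts in vehicle C57BL/6J, 16691.5 in exposed C57BL/6J, 273 in F2 C57BL/6J, 78.1 in vehicle FVB/N and 62.7 in exposed FVB/N. Mup20 and Mup3 made up most of each sum. Mup20 held 56.8% of it in vehicle C57BL/6J, 41.8% in exposed C57BL/6J, 52.1% in F2 C57BL/6J, 38.9% in vehicle FVB/N and 47.1% in exposed FVB/N. Mup3 held 41.4%, 55.5%, 43.6%, 48.6% and 27.3% in the same order. The members other than Mup20, Mup3 and Mup21 held 0.197% in vehicle C57BL/6J and 24.95% in exposed FVB/N. These are shares of estimated counts, for which no binomial interval was computed.

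Whether prenatal DEHP went with a different Mup level within a strain was asked by comparing the F1 conditions. A log2 ratio is that of counts with 1 added, and a gene was counted as past the threshold at 2 log2 units or more with at least 10 counts in 1 of the conditions compared. In C57BL/6J, 6 of the 10 members had at least 10 counts and were estimated in both conditions. Of them 1 was lower in exposed C57BL/6J past the threshold, Mup20 with a log2 ratio of -2.11, where 0.256% of all 16825 genes were lower, and 1 was higher, Gm2083, where 0.0357% of all genes were higher. For Gm2083 no fold is given, because its 0 in vehicle C57BL/6J, although an estimate that did not fail, stands beside failed estimates of 13 other family genes. Mup21 had a log2 ratio of -1.69, Mup6 of -1.27, Mup3 of -1.24 and Mup4 of -1.22, which did not pass. As folds, Mup20 was 4.30-fold, Mup21 3.24-fold, Mup6 2.49-fold, Mup4 2.40-fold and Mup3 2.36-fold lower in exposed C57BL/6J. The median over the 6 members was -1.26, beside -0.01 over all genes, of which the 5th percentile was -0.55. With conditions scaled to equal totals or a difference above the model's SD also required, Mup20 no longer passed.

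In FVB/N, Mup3 and Mup20 alone reached 10 counts, and 0 of these 2 passed the threshold between exposed FVB/N and vehicle FVB/N, where 0.662% of 16471 genes were higher and 0.0182% lower. The log2 ratio was -1.10 for Mup3 and -0.04 for Mup20. The difference of Mup3 was 20.8 counts and exceeded the model's SD of the difference, 15.2, and that of Mup20, 0.779 counts, did not. The summed count of all 10 members was 85.3 in vehicle FVB/N and 67.9 in exposed FVB/N. The other 8 members stayed under 10 counts in both FVB/N conditions.

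The F2 generation was compared with both F1 conditions of C57BL/6J. Between F2 C57BL/6J and vehicle C57BL/6J, 5 members had at least 10 counts and 5 were lower past the threshold, where 3.61% of 17114 genes were lower. Mup20 was 211-fold, Mup3 184-fold and Mup21 137-fold lower, and the log2 ratios of Mup6 and Mup4, which had 0.153 and 1.02 counts in F2 C57BL/6J, were -5.46 and -4.56. Between F2 C57BL/6J and exposed C57BL/6J, 7 of 7 members with at least 10 counts were lower, where 3.3% of 17133 genes were lower, though Mup1 did not pass with its 0.611 counts in F2 C57BL/6J raised to 3. Adding 10 in place of 1 to each count left 4 of the 7, without Mup1, Mup4 and Mup6. Mup3 was 77.8-fold, Mup20 49.1-fold, Mup21 42.2-fold and Gm2083 39.9-fold lower there. Members that pass the count minimum only through a condition in which they are high had to differ, so these counts are a description. Mup20 differed between F2 C57BL/6J and vehicle C57BL/6J by 29863 counts, within the model's SD of the difference, 30997. Generation and set of libraries cannot be told apart, since the marked libraries are those of both F1 conditions.

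The strains were compared without and with DEHP. Between vehicle FVB/N and vehicle C57BL/6J, 5 of 5 members with at least 10 counts were lower, where 8.88% of 17086 genes were lower. Mup20 was 989-fold and Mup3 577-fold lower in vehicle FVB/N, although the difference of Mup20, 29975 counts, lay within the model's SD of the difference, 30997. Against a limit of 3 counts, Mup6 was at least 16.5-fold and Mup4 at least 15.5-fold lower. Between exposed FVB/N and exposed C57BL/6J, 6 of 7 members with at least 10 counts were lower, where 7.67% of 17377 genes were lower, though Mup1 did not pass with its 0 in exposed FVB/N raised to 3 counts. Adding 10 in place of 1 to each count left 4 of the 6, without Mup1 and Mup6. Mup3 was 541-fold and Mup20 236-fold lower, and Mup4, which did not pass, was 2.59-fold lower. In the vehicle comparison Mup4, Mup6 and Mup21 reached 10 counts only in C57BL/6J. In the exposed comparison Mup1, Mup4, Mup6, Mup21 and Gm2083 did so only in C57BL/6J. Members that pass the count minimum only through the condition in which they are high had to differ, so these counts too are a description. Strain and set of libraries cannot be told apart in either comparison.

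Vehicle FVB/N and F2 C57BL/6J are both unmarked, although they differ in strain, exposure and generation at once. Here 2 of 3 members with at least 10 counts were lower in vehicle FVB/N, where 2.5% of 16969 genes were lower. They were Mup7, which was 4.88-fold lower, and Mup20, which was 4.68-fold lower. Of this pair of conditions, Mup7 reached 10 counts only in F2 C57BL/6J, so its call is a description. Neither passed with 10 in place of 1 added to each count, and Mup20 alone was left at a minimum of 100 counts. Mup3 was 3.14-fold lower and did not pass. Within the unmarked libraries the summed count of all 10 members was 3.62-fold lower in vehicle FVB/N, compared with 677-fold for the 8 estimated members between vehicle FVB/N and vehicle C57BL/6J.

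**Figure D4:**
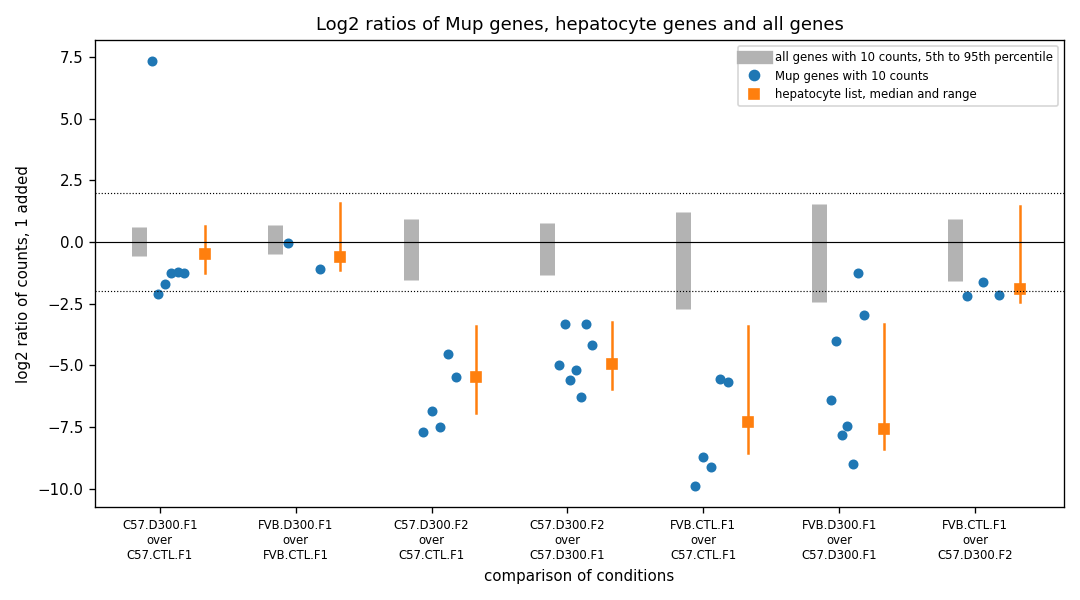
Log2 ratios (1 added to each count) in the 7 comparisons of conditions. Blue points are Mup genes with at least 10 counts, orange squares and lines the median and range of the hepatocyte list, grey bars the 5th to 95th percentile of all genes, and dotted lines the threshold of 2 log2 units. Mup3 lies below the grey bar in the 7 comparisons and Mup20 in 6 of them, since Mup20 lies within it at -0.04 between exposed FVB/N and vehicle FVB/N.

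Since Mup RNA is best known from liver, its values were set beside 23 genes typical of hepatocytes. In these sperm libraries 23 of 23 were above 3 counts in each condition, and their summed count was 353362 in vehicle C57BL/6J, 286570 in exposed C57BL/6J, 11098 in F2 C57BL/6J, 5457 in vehicle FVB/N and 4522 in exposed FVB/N. Albumin (Alb) was the most abundant in the F1 conditions of C57BL/6J, with 83529 and 100464 counts and a model's SD of 343315 and 443754, and transferrin (Trf) in the others. Alb had 2559 counts in F2 C57BL/6J, 524 in vehicle FVB/N and 349 in exposed FVB/N. The hepatocyte list and the Mup genes were thus high in the same pair of conditions. Fewer cells of a type and less RNA per cell cannot be told apart in such bulk samples, and the part that RNA of hepatocyte type has in the Mup values was not tested.

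The summed Mup count differed by more than the summed hepatocyte count in the 7 comparisons. Between the FVB/N conditions it did so by little, with log2 ratios of -0.32 and -0.27, and the Mup sum turned to 0.10 without Mup3. Alb alone differed by more than the Mup sum there, at -0.59. It also did so between the exposed strains, at -8.17 beside -8.03, and between vehicle FVB/N and F2 C57BL/6J, at -2.29 beside -1.84. In the other comparisons Alb differed by less. The 8 members had 149 counts per 1000 counts of that list in vehicle C57BL/6J, 58.2 in exposed C57BL/6J, 24.6 in F2 C57BL/6J, 14.3 in vehicle FVB/N and 13.9 in exposed FVB/N. This order depends on the genes of the list, of which Trf had 2347 and Fga 1433 of the 5457 counts in vehicle FVB/N. Per 1000 counts of Alb alone, the 8 members had 632 counts in vehicle C57BL/6J, 166 in exposed C57BL/6J, 107 in F2 C57BL/6J, 149 in vehicle FVB/N and 179.9 in exposed FVB/N, lowest in F2 C57BL/6J rather than in FVB/N. Between exposed C57BL/6J and vehicle C57BL/6J, the log2 ratio of the summed Mup count was -1.66, and that of the summed hepatocyte count -0.30, with a median of -0.50 and 0 of 23 genes past the threshold. Alb had a log2 ratio of 0.27 there, whereas the fatty acid carrier Fabp1, the lowest of the list, had -1.25, close to the -1.24 of Mup3. Between F2 C57BL/6J and vehicle C57BL/6J, 23 of 23 hepatocyte genes were lower with a median of -5.49, beside -6.87 for the median of the 5 Mup members. Between vehicle FVB/N and vehicle C57BL/6J, 23 of 23 were lower with a median of -7.31, beside -8.70 for the 5 Mup members, or -7.67 after raising lower counts to 3. Between exposed FVB/N and exposed C57BL/6J the hepatocyte median was the lower, at -7.56 beside -6.41 for the Mup members, or -5.32 after raising lower counts to 3. Between F2 C57BL/6J and exposed C57BL/6J they were close, at -4.97 for the hepatocyte list and -5.004 for the Mup members, as they were between exposed FVB/N and vehicle FVB/N, at -0.62 and, over 2 members, -0.57. In both comparisons with exposed C57BL/6J the Mup median is the value of Gm2083, whose transcript is not settled, and Mup1, Mup4 and Mup6 had fewer than 20 counts there, which bounds how low their ratios can be. The order of the medians in these comparisons therefore says nothing of the Mup genes beside the hepatocyte list. Mup3 had ratios of -8.999 in exposed FVB/N and -6.27 in F2 C57BL/6J against exposed C57BL/6J, and Mup20 of -7.83 and -5.61. Between vehicle FVB/N and F2 C57BL/6J the medians were -1.90 for the hepatocyte list and, over 3 members, -2.14 for the Mup genes.

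**Figure D5:**
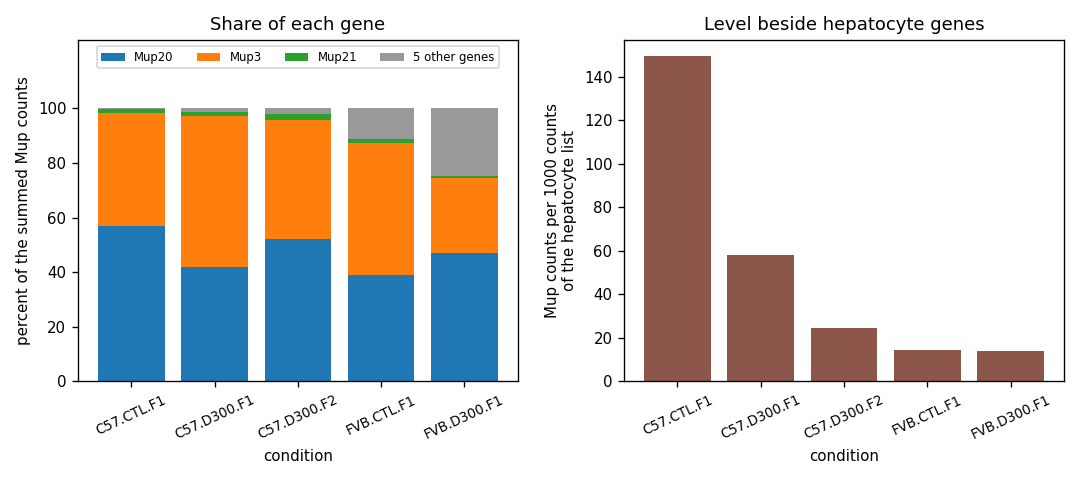
Left, percentage of the summed counts of the 8 Mup genes estimated in all conditions that belongs to Mup20, Mup3, Mup21 and the 5 others; right, their summed counts per 1000 counts of the 23 hepatocyte genes. Mup20 holds 56.8% in vehicle C57BL/6J and 41.8% in exposed C57BL/6J, and the level on the right is 149 in vehicle C57BL/6J and 13.9 in exposed FVB/N.

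The genes with the profile over the 5 conditions most like that of Mup3 were sought among 11234 genes outside the family with at least 100 counts in their highest condition. The measure was the largest absolute difference between the log2 profiles, each centred on its mean. Fabp1 was nearest at 0.41 log2 units, followed by the glucuronosyltransferase Ugt2b5 at 0.48, the thyroxine carrier Ttr at 0.52, the cytochrome Cyp3a11 at 0.68 and the aldo-keto reductase Akr1c6 at 0.69. On the same measure Mup20 lay at 0.61 from Mup3 and Mup21 at 0.79, whereas the other members estimated in all conditions lay between 3.71 (Mup6) and 8.20 (Gm2083). Mup2, Mup4, Mup5 and Mup6 had too few counts to show the span of Mup3, so their distances say nothing of how alike the profiles are. In vehicle FVB/N and exposed FVB/N, Mup21 had 0.952 and 0.416 counts and Ugt2b5 1.87 and 0.941, all under the limit of detection. The distances of Mup21 and Ugt2b5 therefore depend in part on the 1 added to each count. The same 5 genes were nearest to the summed Mup members, with Fabp1 at 0.46. Fabp1 had 11513 counts in vehicle C57BL/6J, 4847 in exposed C57BL/6J, 93.7 in F2 C57BL/6J, 31.1 in vehicle FVB/N and 15.3 in exposed FVB/N, the same order of conditions as Mup3.

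A list of 25 genes held the hormone signals that act on hepatic Mup genes, with their receptors and liver transcription factors. Of these, 25 had at least 10 counts in the F1 comparison of C57BL/6J and 20 in that of FVB/N. Between DEHP and vehicle, 0 passed the threshold in either strain. Of all genes, 0.256% were lower and 0.0357% higher in C57BL/6J, and 0.0182% lower and 0.662% higher in FVB/N, so 0 is near these shares. In F2 C57BL/6J 6 of 25 were lower than in vehicle C57BL/6J, where 3.61% of all genes were lower. Against exposed C57BL/6J 5 were lower, where 3.3% of all genes were lower. Between vehicle FVB/N and vehicle C57BL/6J, 9 of 25 were lower, with a median of -1.39, where 8.88% of all genes were lower. The lowest ratio was that of the liver regulator Hnf4a at -4.84. The growth hormone receptor Ghr had 1489 counts in vehicle C57BL/6J, 1519 in exposed C57BL/6J, 292 in F2 C57BL/6J, 203 in vehicle FVB/N and 159 in exposed FVB/N, which is high where the Mup genes were high. The kinase Jak2, which relays its signal, had 1318, 1430.05, 1649, 1924 and 1556 counts, and the prolactin receptor Prlr 1854, 2055, 2603, 2226 and 1805, in the same order. These did not follow the Mup genes.

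Mup genes are more active in male than in female liver. Of 14 other genes with that bias, 11 were lower in F2 C57BL/6J than in vehicle C57BL/6J, with a median of -5.41. In vehicle FVB/N 11 were lower than in vehicle C57BL/6J, with a median of -5.68 (-5.61 after raising lower counts to 3). Of all genes, 3.61% and 8.88% were lower in these comparisons. The serpin Serpina1e, the most abundant of them in the F1 conditions of C57BL/6J, had 12996 and 9912 counts there and 204, 46.9 and 44.3 in the other 3. Ugt2b38 was the only one past the threshold between exposed C57BL/6J and vehicle C57BL/6J, at -2.16, near the -2.11 of Mup20. The ω-hydroxylase Cyp4a12a did not follow the Mup genes and was 1.15 log2 units higher in vehicle FVB/N than in vehicle C57BL/6J. Of 14 genes with a female bias in liver, 0 passed the threshold in the 7 comparisons, but only 2 had at least 10 counts in each comparison.

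Related carriers outside the cluster behaved in more than 1 way, and 7 of the 11 with at least 10 counts were lower in F2 C57BL/6J than in vehicle C57BL/6J. Ambp and Rbp4 are also in the hepatocyte list. Of 16 other lipocalins, Orm2 and Orm3, which encode acid glycoproteins of plasma, were lower in exposed C57BL/6J than in vehicle C57BL/6J at -2.99 and -2.94, both below the ratio of Mup20. Ambp, made in liver, had 4143 counts in vehicle C57BL/6J, 2830.33 in exposed C57BL/6J, 94.99 in F2 C57BL/6J, 16.6 in vehicle FVB/N and 8.09 in exposed FVB/N, in the order of the Mup genes. Ptgds, a lipocalin of the reproductive tract and brain, went the other way, with 11805 counts in vehicle C57BL/6J and 28918 in exposed FVB/N. Genes of the glands of the head, another known source of Mup RNA, had low counts apart from Amy1. The 5 odorant binding proteins and lipocalins of the nose summed to between 2.62 counts in exposed C57BL/6J and 11.4 in exposed FVB/N, and of 13 salivary and lacrimal genes Amy1 alone passed the threshold, in both comparisons of the strains within F1. Amy1, which liver also expresses, had 530.2 counts in vehicle C57BL/6J and 71.9 in vehicle FVB/N, a log2 ratio of -2.87. Of 5 genes for the detection of urinary proteins in the vomeronasal organ, the channel Trpc2 alone passed the threshold, in exposed FVB/N against exposed C57BL/6J at -3.48. It had 11.8 counts in vehicle C57BL/6J, 15.2 in exposed C57BL/6J, 17.8 in F2 C57BL/6J, 5.56 in vehicle FVB/N and 0.448 in exposed FVB/N, with a model's SD of 12.8 in exposed C57BL/6J, and did not have the order of the Mup genes.

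Markers of other tissues moved with the same conditions as the Mup genes in part. The 9 seminal vesicle genes summed to 238781 counts in vehicle C57BL/6J and 1147 in exposed C57BL/6J, with 9 of 9 lower and a median of -10.41, beside -1.26 for the Mup members. Each of the 9 was highest in vehicle C57BL/6J, where the most abundant, Svs4, had 63518 counts and a model's SD of 471701, several times the count, and they summed to 1785 in F2 C57BL/6J, 2527 in vehicle FVB/N and 2317 in exposed FVB/N. Of these 9 genes, 4 were at or under 3 counts in exposed C57BL/6J, where Mup20 had 6973 counts and Mup3 9264. The 15 spermatid and sperm genes were all above 3 counts in each condition, and summed to 100074 in vehicle C57BL/6J, 84453 in exposed C57BL/6J, 34519 in F2 C57BL/6J, 8532 in vehicle FVB/N and 10245 in exposed FVB/N, led by Smcp in C57BL/6J and Odf1 in FVB/N. Between vehicle FVB/N and vehicle C57BL/6J, 15 of 15 were lower, with a median of -3.03, beside -8.70 for the Mup members. Of 13 epididymal genes, 10 were higher in exposed FVB/N than in vehicle FVB/N with a median of 7.09 over 12 genes (6.36 after raising lower counts to 3), where the log2 ratio of Mup20 was -0.04. Gpx5, an epididymal peroxidase, had 71.4 counts in vehicle FVB/N and 24121 in exposed FVB/N, and the 12 genes of that list estimated in all conditions summed to 39039 in vehicle C57BL/6J, 45738 in exposed C57BL/6J, 54164 in F2 C57BL/6J, 62183 in vehicle FVB/N and 125019 in exposed FVB/N. Of 9 blood genes, led by Cd74 in all conditions but exposed FVB/N, where Hbb-bs was highest, 5 were higher in exposed FVB/N than in vehicle FVB/N, and the list summed to 2836 and 7652 counts. In C57BL/6J the blood gene S100a9 was lower with DEHP, at 49.6 counts in vehicle C57BL/6J and 5.53 in exposed C57BL/6J, a log2 ratio of -2.95. It was the only 1 of the 8 blood genes with at least 10 counts to pass the threshold there, and their median was -0.08. The blood list as a whole summed to 4621 counts in vehicle C57BL/6J and to 6985, a higher sum, in exposed C57BL/6J. Of all genes, 0.256% were lower in exposed than in vehicle C57BL/6J, and 8.88% lower in vehicle FVB/N than in vehicle C57BL/6J. In exposed FVB/N 0.662% were higher than in vehicle FVB/N. The part of these tissues in the Mup values was not tested.

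The genes beside the cluster were compared in the same way. The 5 nearest genes of the table on each side were Hsdl2, E130308A19Rik, Inip, Snx30 and Slc46a2 before Mup4, and Zfp37, Slc31a2, Fkbp15, Slc31a1 and Cdc26 after Mup21. Of these 10 genes, 0 passed the threshold in the 7 comparisons. Over these comparisons, between 0.0182% and 8.88% of all genes were lower past it and between 0.0357% and 2.65% higher. A count of 0 among 10 genes is near these shares and does not set the neighbours apart from other genes. Hsdl2 had the order of conditions of Mup20 and Mup3, with 631 counts in vehicle C57BL/6J, 459 in exposed C57BL/6J, 316 in F2 C57BL/6J, 266 in vehicle FVB/N and 209.8 in exposed FVB/N. Slc46a2, 41.7 kb from Mup4, had 428 counts in vehicle C57BL/6J and 357 in vehicle FVB/N. Zfp37, 38.7 kb from Mup21, had 88.9 and 75.2 counts in the same conditions. The largest ratio among the neighbours was that of Hsdl2 between vehicle FVB/N and vehicle C57BL/6J, at -1.25, where the lowest Mup ratio was -9.90.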

How the data were processed

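RNA of cauda sperm was measured in 25 libraries. The submitters' processing notes name CASAVA 1.8.2, TopHat, Cufflinks and Cuffdiff. According to the study's methods, adapters were clipped and very short reads dropped before TopHat placed the rest on mm10, an assembly of C57BL/6J, with a gene annotation and a stranded library setting. Cuffdiff options, the versions of the other tools and the annotation release are not given in the sources used here. The values the authors deposited are a signal, 1 estimated count per gene and condition, scaled between libraries and not divided by length. Other deposited columns hold the variance of each count under the model, and its part from read assignment, 0 throughout. In all, 15 columns were used. Failed estimates (71 genes in 1 condition or more) were treated as missing.

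Log2 ratios used counts with 1 added, and the threshold was 2 log2 units with at least 10 counts in 1 condition. With 1 value per condition no test was run, and single libraries could not be left out. The model's SD of a difference is the root of the summed variances. Levels between genes used the longest protein-coding transcript in GENCODE M21. The members and the 12 gene lists were chosen with earlier results of these data known. Genes named were drawn from the members, the other Mup genes, 5 neighbours on each side, the 5 nearest profiles, and of each list the 3 most abundant and those past the threshold between DEHP and vehicle. Of the list genes only some are named, and these, like those given as a list's highest or lowest, were chosen after their values were seen. The values of the other list genes and 1 promoter motif are not reported here. Other scalings, pseudocounts, minimums, thresholds and member sets were tried. The ratio and threshold step alone was tested on simulated counts, which held counting error only and no spread between libraries or shared reads. Software was biopython 1.88, matplotlib 3.10.9, numpy 2.4.6 and pandas 2.3.3 under Python 3.11.15.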

Additional observations from a re-analysis of the deposited data

Results flagged for a closer look

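The log2 ratios of Mup4, Mup6 and Gm2083 between DEHP and vehicle had opposite signs in the strains as computed from the listed counts. The log2 ratio of DEHP over vehicle in FVB/N minus that in C57BL/6J was 4.31 for Mup4, 2.70 for Mup6 and -8.71 for Gm2083. Each rests on FVB/N counts of at most 7.48, and a count listed at 0 enters each of them. None of the 3 reached 10 counts in FVB/N, Mup4 and Mup6 did not pass the threshold in C57BL/6J, and Mup6, with FVB/N counts of 0 and 1.69, shows no direction there. These differences between the strains were not tested.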

How the results depend on the processing

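No paired analysis was possible because the table holds 1 value per condition. Over 49 alternatives of the summed count, 48 stayed within 0.5 log2 units. The exception was exposed FVB/N against exposed C57BL/6J without Mup3, at -7.32 in place of -8.03. In exposed FVB/N against vehicle FVB/N the sum ranged from -0.45 to 0.10, so its sign changed. Scaling to equal totals shifted the median of all genes by between -0.13 and 0.32 log2 units over the comparisons, and to equal upper quartiles by up to 0.23. No scaling turned the direction of a member with at least 10 counts.

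Counts of members past the threshold stayed within 1.5 times in 65 of 77 alternatives. In exposed C57BL/6J against vehicle C57BL/6J the count was 2, and became 1 with equal totals, with the difference also above the model's SD, or without Gm2083 (an alternative chosen after seeing the data), and 6 at 1 log2 unit. In exposed FVB/N against vehicle FVB/N it was 0, and became 1 with no minimum (Mup4) or at 1 log2 unit (Mup3). A minimum of 100 counts left 3 of 5 in F2 C57BL/6J against vehicle C57BL/6J, 3 of 5 in vehicle FVB/N against vehicle C57BL/6J, 4 of 7 in F2 C57BL/6J against exposed C57BL/6J, 4 of 6 in exposed FVB/N against exposed C57BL/6J and 1 of 2 in vehicle FVB/N against F2 C57BL/6J. A pseudocount of 10 left 4 of 7 in F2 C57BL/6J against exposed C57BL/6J, 4 of 6 in exposed FVB/N against exposed C57BL/6J and 0 of 2 in vehicle FVB/N against F2 C57BL/6J. Mup1 no longer passed with lower counts raised to 3, which left 6 of 7 in F2 C57BL/6J and 5 of 6 in exposed FVB/N against exposed C57BL/6J. Mup20 no longer passed where a difference above the model's SD was also required, which left 4 of 5 in F2 C57BL/6J and in vehicle FVB/N against vehicle C57BL/6J. Fewer members reach a higher minimum; the cause of the other changes was not tested. Members under 10 counts are limited by depth.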
